A study of Mus musculus with 6 samples.

Results

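Bile acids are made in the liver, act as detergents for fat in the upper bowel, and are taken back at the end of the small intestine, in the ileum. The ileal enterocyte takes them up at its apical face, binds them in the cytosol and exports them at its basolateral face to portal blood. Inside the cell they activate the nuclear receptor FXR, which in adult mice turns on the hormone gene Fgf15, and the hormone then lowers bile acid synthesis in the liver. Described here are 9 genes of these steps, chosen by name and role among the 55487 gene identifiers of the table: Slc10a2 (uptake), Fabp6 (cytosolic binding), Slc51a, Slc51b and Abcc3 (basolateral export), Abcc2 (apical export), Nr1h4 (which encodes FXR), and the FXR targets Fgf15 and Nr0b2. Each matched 1 identifier, and coordinates are those of GENCODE M21 on the mouse build mm10.

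RNA of the terminal ileum of C57BL/6 mice on postnatal day 9 was sequenced in 6 libraries, of which 3 carry the label NEC and 3 the label control. NEC stands for necrotizing enterocolitis, a disease of the immature bowel. The model combined gavage of hyperosmolar formula, spells of 10 min in 5% O2 given 3 times daily for 4 days, and lipopolysaccharide by mouth (4 mg/kg daily) on days 6 and 7 of life. The control labels carry the same treatment text, so how the controls were fed and handled is not stated, and the labels do not say that each library came from a separate animal. Feeding and disease therefore cannot be told apart.

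Values are FPKM, fragments per kilobase of transcript, scaled to the depth of the library. The libraries held 16.9 M to 18.7 M fragments in NEC and 15.2 M to 16.2 M in control, an estimate from the steps of the low values. General markers of the tissue were high in all libraries: Cdh17, an intestinal cadherin, was at 252 to 287 FPKM in NEC and 181 to 184 in control, and Cdx2, an intestinal transcription factor, at 51.2 to 65.4 FPKM in NEC and 66.1 to 69.2 in control. The summed level of 10 epithelial markers was 1130 to 1454 FPKM in NEC and 1163 to 1251 in control. Genes of the deeper bowel wall were lower in NEC 1 than in the other libraries. The summed level of 6 smooth muscle genes was 141 FPKM in NEC 1, 678 in NEC 2 and 671 in NEC 3, against 767 to 912 in control, and that of 5 fibroblast genes was 87.9 to 273 FPKM in NEC and 505 to 616 in control. The summed level of 8 leukocyte genes was 67.1 to 74.8 FPKM in NEC and 31.9 to 70.8 in control, most of it from S100a8, S100a9 and Csf1r. The pan-leukocyte gene Ptprc was at 0.642 to 1.07 FPKM in NEC and 1.19 to 2.32 in control. The macrophage gene Adgre1 was at 0.921 to 1.67 FPKM in NEC and 2.19 to 3.50 in control. Csf1r, of the same list, was not lower in NEC, at 22.3 to 25.3 FPKM against 19.4 to 22.4 in control. Of 10 liver markers, whose sum was 194 to 326 FPKM in NEC and 373 to 413 in control, Alb, Apoa2, Ahsg, Apoh and Cyp2e1 were below 1 FPKM in every library. Most of the sum came from Cps1, at 171 to 282 FPKM in NEC and 288 to 310 in control, and from Ttr, at 17.8 to 42.1 FPKM in NEC and 79.3 to 97.3 in control. Of 7 colon genes, Hoxb13 and Hoxd13 were listed at 0 in all 6 libraries, and the sum was 3.25 to 5.89 FPKM in NEC and 14.6 to 18.7 in control. The summed level of 6 pancreas genes was 1.94 to 11.1 FPKM in NEC and 0.362 to 0.748 in control. Of these, 5 were below 1 FPKM in every library. The remaining gene, Ctrb1, was at 10.8, 4.45 and 1.34 FPKM in NEC 1, 2 and 3 and at 0 to 0.292 FPKM in control.

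Of the 15806 genes that averaged 1 FPKM or more over the 6 libraries, 38.2% were called, that is, had a Benjamini-Hochberg adjusted p under 0.05 in limma on log2(FPKM + 1). Of these tested genes, 7.69% were higher and 30.6% lower in NEC. Of the 9 bile acid genes, 8 passed the filter on low values, and 3 of these were higher, 1 lower and 4 not called. The median log2 change of the 8 was 0.11, beside -0.26 over all tested genes on the deposited scale. After TMM scaling, which centres the middle of the ratios between libraries, the median of all genes was 0.01 and that of the 8 was 0.39. TMM called 2655 genes higher and 2264 lower over the whole table, against 1215 higher and 4829 lower on the deposited scale. The levels of the groups did not overlap for 59.1% of all tested genes, and for 5 of the 8. All p-values rest on the spread among 3 libraries per group, which may be partly technical.

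Of the 4 export genes 3 were higher in NEC, and the hormone gene was lower. Slc51a, Slc51b and Abcc2 were above control in 3 of 3 NEC libraries, and Fgf15 was below control in 3 of 3. The uptake gene Slc10a2, the export gene Abcc3 and the receptor gene Nr1h4 were not called on the deposited scale. Fabp6 was split within NEC, with 1 library far above and 2 below the controls.

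**Figure D1:**
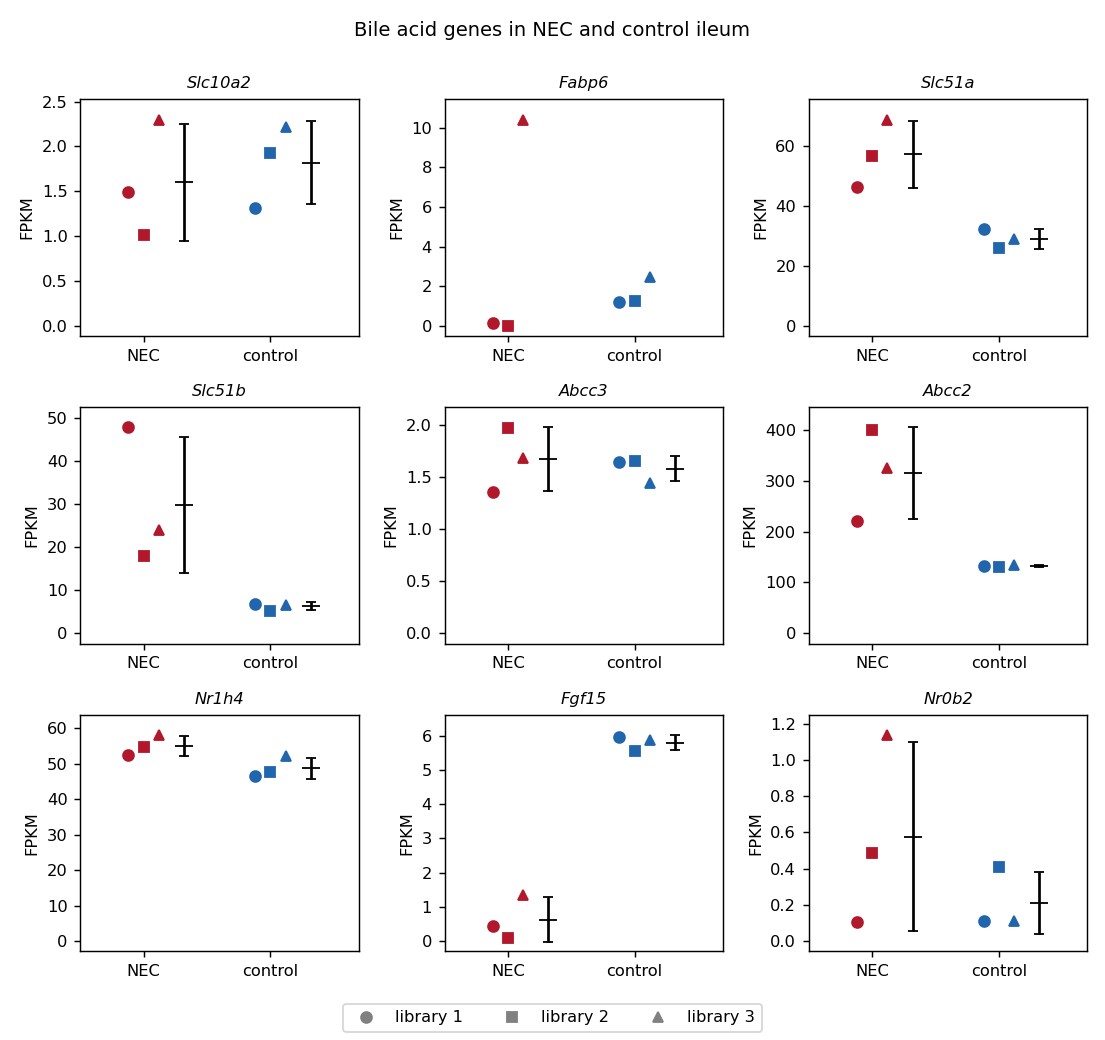
FPKM (y axis, linear, its own scale in each panel) of the 9 bile acid genes in the NEC and control libraries. Points are libraries, marked by number only, since the labels do not say that equal numbers pair them. Black marks are the mean and SD of the 3 libraries, left out for Fabp6 because 1 library is listed at 0. NEC points lie above all control points for Slc51a, Slc51b, Abcc2 and Nr1h4, and below them for Fgf15.

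Slc10a2 encodes the apical sodium-dependent bile acid transporter, the gate of ileal uptake (ENSMUSG00000023073, chromosome 8, 5083219 to 5105351). In rats it is low in the suckling period and rises at weaning. Slc10a2 was at 1.49, 1.01 and 2.30 FPKM in NEC 1, 2 and 3 and at 1.31, 1.93 and 2.21 FPKM in control 1, 2 and 3. The NEC values reached both above and below the controls, and both groups were low, with 22.5% of tested genes below its NEC mean and 14.5% below its control mean. With a single annotated transcript of 4152 bases, its values correspond to 105, 76 and 178 fragments in NEC and 85, 122 and 149 in control. The log2 change was -0.13 (95% interval -0.65 to 0.38, adjusted p = 0.646, limma, Benjamini-Hochberg), and its sign turned with the scaling, to 0.084 with TMM and 0.24 with quantile normalization.

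Fabp6 encodes the ileal bile acid-binding protein of the enterocyte cytosol (ENSMUSG00000020405, chromosome 11, 43596049 to 43601540). Fabp6 was at 0.123 FPKM in NEC 1, listed at 0 in NEC 2 and at 10.4 FPKM in NEC 3, against 1.20, 1.23 and 2.45 FPKM in control 1, 2 and 3. NEC 3 was thus above every control and the other NEC libraries below every control. In fragments these are 1, 0 and 93 in NEC and 9, 9 and 19 in control. The exact Poisson 95% interval, which covers counting error only, was 75.1 to 114 fragments for NEC 3, and it lay above that of control 3, at 11.4 to 29.7. The interval of NEC 1, 0.0253 to 5.57, overlapped the 4.12 to 17.1 of control 1 and of control 2. For the count of 0 in NEC 2 the interval ended at 3.69 fragments, where 3 fragments would be 0.345 FPKM. Fabp6 passed the filter of 1 FPKM, and its log2 change was -0.14 (SE 0.90, adjusted p = 0.914, limma, Benjamini-Hochberg). The size of this change depended on the pseudocount, at -1.41 with 0.1 and -2.69 with 0.01, not called in either case (adjusted p = 0.517 and 0.386, limma). Without NEC 3 it was -1.28 and called lower (adjusted p = 0.0132), and without NEC 1 and NEC 2 it was 0.39 and 0.48 and not called (adjusted p = 0.766 and 0.713).

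**Figure D2:**
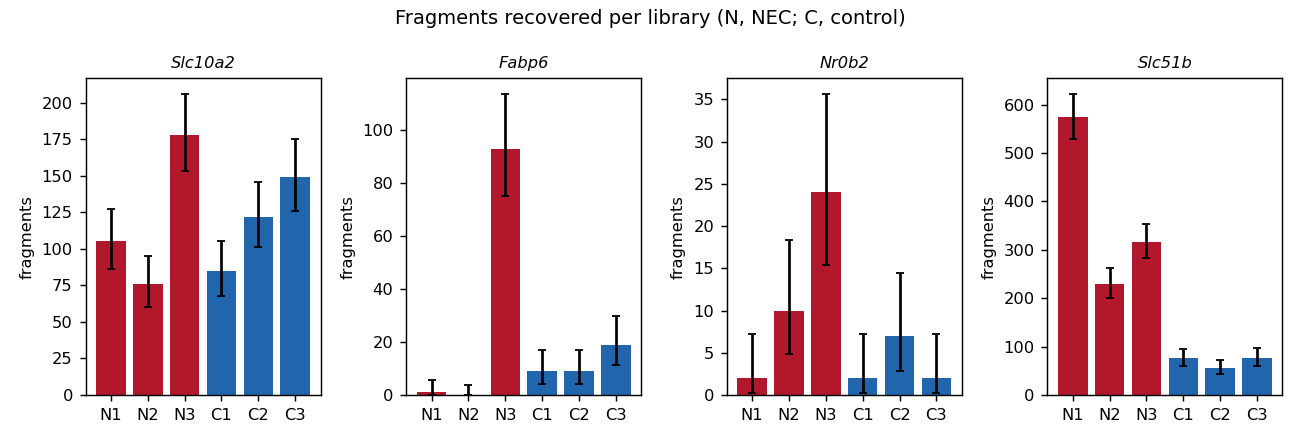
Fragments (y axis, linear from 0) behind the values of the 4 bile acid genes with a single annotated transcript, in NEC libraries N1 to N3 and control libraries C1 to C3. Bars are recovered whole fragments and error bars exact Poisson 95% intervals, which cover counting error only; for Fabp6 the bars are 1, 0 and 93 in NEC and 9, 9 and 19 in control.

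Windows upstream of RefSeq transcript starts of the genes were searched for the motifs of FXR and HNF1. The stretches around the closest IR-1 match of Fabp6, Slc51a and Slc51b and the closest HNF1 match of Slc10a2 are shown. FXR with its partner RXR binds an inverted repeat with 1 base between the copies, IR-1, searched as AGGTCA, any base N and TGACCT. HNF1, a transcription factor known to drive Slc10a2 in mice, binds a palindrome searched as GTTAAT, any base N and ATTAAC. Each motif is its own reverse complement, so 1 search covers both strands, and the motifs were matched in the 250 bases upstream of 32536 RefSeq starts on GRCm38.p6. Of the 9 genes, 7 had such a window. The Fabp6 window held 2 separate IR-1 matches within 2 mismatches, shown in capitals. At least 1 match within 2 mismatches stood in 0.959% of all windows, and 2 or more in 0.0123%. The Slc10a2 window held an HNF1 match within 1 mismatch, in capitals, as did 0.191% of all windows. The best IR-1 match of Slc51a and Slc51b had 3 mismatches, and 9.63% of all windows held a match within that number. For Nr0b2, Abcc2, Nr1h4 and Slc10a2 it had 4 mismatches. The best HNF1 match had 2 mismatches in Nr1h4 and Abcc2, a number within which 1.25% of all windows held one, 4 in Fabp6, and 5 in Nr0b2, Slc51a and Slc51b. The IR-1 match of Slc51b lies at the transcript start of GENCODE, since the RefSeq start is further downstream. The matches of Nr1h4 and Abcc2 lie inside the gene as annotated by GENCODE, not upstream of it, for the same reason. A match is a description of the letters and does not show binding, and the chromatin of these samples was not measured. The stretches are, from the strand of each gene:
Fabp6, chr11:43601662-43601812, minus strand: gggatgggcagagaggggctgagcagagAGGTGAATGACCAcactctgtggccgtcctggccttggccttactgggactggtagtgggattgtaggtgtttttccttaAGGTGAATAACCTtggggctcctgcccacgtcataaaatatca
Slc10a2, chr8:5105469-5105537, minus strand: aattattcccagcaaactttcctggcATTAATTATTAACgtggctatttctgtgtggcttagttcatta
Slc51a, chr16:32487916-32487988, minus strand: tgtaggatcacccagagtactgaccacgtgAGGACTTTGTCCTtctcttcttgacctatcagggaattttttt
Slc51b, chr9:65422940-65422968, minus strand: cattcgtgGGGTCATTCACCCtggactgg

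The basolateral exporter is a heterodimer of OST-alpha and OST-beta, encoded by Slc51a and Slc51b, and both genes are known FXR targets. Slc51a (ENSMUSG00000035699, chromosome 16, 32474504 to 32487879) was at 46.2, 56.7 and 68.8 FPKM in NEC 1, 2 and 3 and at 32.3, 25.8 and 29.0 FPKM in control 1, 2 and 3. Every NEC library lay above every control. The NEC mean was 57.2 ± 11.3 FPKM and the control mean 29.0 ± 3.23 FPKM (SD, n = 3 each). On the log2 scale Slc51a rose by 0.94 ± 0.16 (SE) with an adjusted p of 0.00998 (limma, Benjamini-Hochberg). Slc51a shares 567 exonic bases with Pcyt1a on the other strand, which was at 9.07 to 11.0 FPKM in NEC and 6.11 to 6.52 in control, and the strand setting is not given in the sources used here.

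Slc51b (ENSMUSG00000053862, chromosome 9, 65412714 to 65422955) was at 47.8, 17.9 and 24.0 FPKM in NEC 1, 2 and 3, against 6.86, 5.19 and 6.70 FPKM in control 1, 2 and 3. The groups did not overlap, and NEC 1 was well above the other NEC libraries. The values rest on 574, 230 and 317 fragments in NEC and 76, 56 and 77 in control. The NEC mean was 29.9 ± 15.8 FPKM and the control mean 6.25 ± 0.923 FPKM (SD, n = 3 each). On the log2 scale Slc51b rose by 1.98 ± 0.34 (SE) with an adjusted p of 0.00968 (limma, Benjamini-Hochberg). Without NEC 1, which also had the lowest smooth muscle level, the rise was 1.59 (adjusted p = 0.00319, limma). Slc51b shares 91 exonic bases with Rasl12 on the other strand, which was at most 1.06 FPKM in all libraries.

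FPKM is scaled to transcript length, so the FPKM of the subunits were set side by side within a library. Slc51a has 3 annotated transcripts and Slc51b has 1, so the ratio is one of FPKM and not of counted transcripts. The level of Slc51b per level of Slc51a was 1.03, 0.315 and 0.348 in NEC 1, 2 and 3 and 0.213, 0.201 and 0.231 in control 1, 2 and 3. In NEC 1 the FPKM of the subunits were thus nearly equal, and in the other 5 libraries that of the beta subunit was the lower. The summed level of both subunits per level of Slc10a2 was 40.4 to 74.0 in NEC and 16.1 to 29.9 in control, without overlap.

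Abcc3 encodes MRP3, a basolateral exporter of bile acid conjugates (ENSMUSG00000020865, chromosome 11, 94343295 to 94392997). Abcc3 was at 1.36, 1.97 and 1.69 FPKM in NEC 1, 2 and 3 and at 1.64, 1.66 and 1.45 FPKM in control 1, 2 and 3. The NEC values spanned all control values. The log2 change was 0.04 (95% interval -0.26 to 0.34, adjusted p = 0.801, limma, Benjamini-Hochberg), and Abcc3 was called higher with quantile normalization, at 0.42 (adjusted p = 0.0222, limma).

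Abcc2 encodes MRP2, which pumps glutathione, glucuronide and bile acid conjugates out at the apical face (ENSMUSG00000025194, chromosome 19, 43782192 to 43840740). It was the most abundant of the 9, with 99.5% of tested genes below its NEC mean and 98.5% below its control mean. Abcc2 was at 221, 399 and 325 FPKM in NEC 1, 2 and 3, against 132, 131 and 134 FPKM in control 1, 2 and 3. All NEC values lay above the controls, which were within 3 FPKM of one another. Abcc2 averaged 315 ± 89.7 FPKM in NEC libraries and 132 ± 1.51 FPKM in controls (SD, n = 3 each). Its rise on the log2 scale was 1.20 ± 0.21 (SE), with an adjusted p of 0.0105 (limma, Benjamini-Hochberg). Per level of Abcc3, Abcc2 stood at 163 to 203 in NEC and 79.0 to 92.5 in control.

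Nr1h4 encodes FXR itself (ENSMUSG00000047638, chromosome 10, 89454234 to 89533585). Nr1h4 was at 52.3, 54.7 and 58.0 FPKM in NEC 1, 2 and 3 and at 46.4, 47.7 and 52.0 FPKM in control 1, 2 and 3. The receptor transcript was abundant in both groups, and the lowest NEC value stood just above the highest control. The log2 change was 0.17 (95% interval -0.05 to 0.39, adjusted p = 0.173, limma, Benjamini-Hochberg). Whether it was called depended on the scale: TMM gave 0.52 (adjusted p = 0.0121) and scaling to the sum of protein-coding genes, less the 100 most abundant, gave 0.26 (adjusted p = 0.048), while scaling to the epithelial markers gave 0.27 (adjusted p = 0.271, limma). The FXR partners Rxra and Rxrb were at 11.0, 15.9 and 17.1 and at 1.99, 2.77 and 3.00 FPKM in NEC, against 17.2, 17.7 and 18.4 and 3.37, 3.47 and 3.67 FPKM in control. Both were below control in 3 of 3 NEC libraries and neither was called (log2 -0.28 and -0.34, adjusted p = 0.205 and 0.0877, limma). These changes were near the median of -0.26 over all tested genes, and with TMM they were 0.046 for Rxra, of opposite sign, and -0.080 for Rxrb.

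Fgf15, the mouse counterpart of human FGF19, encodes the hormone by which the ileum signals bile acid return to the liver (ENSMUSG00000031073, chromosome 7, 144896531 to 144900953). Fgf15 was at 0.452, 0.0821 and 1.35 FPKM in NEC 1, 2 and 3, against 5.97, 5.55 and 5.88 FPKM in control 1, 2 and 3. The controls were close together, and the highest NEC library, NEC 3, was far below them. Fgf15 averaged 0.627 ± 0.651 FPKM in NEC libraries and 5.80 ± 0.221 FPKM in controls (SD, n = 3 each). It fell by 2.14 ± 0.27 (SE) on the log2 scale, with an adjusted p of 0.00519 (limma, Benjamini-Hochberg). Because values near 0 are compressed by the pseudocount of 1, this scale understates the fall. The share of tested genes below its mean was 1.60% in NEC and 58.1% in control. Per level of Nr1h4, Fgf15 stood at 0.00150 to 0.0232 in NEC and 0.113 to 0.129 in control. In whole tissue, fewer cells that express a gene and less RNA of it per cell cannot be told apart. Fgf15 shares 761 exonic bases with Gm26793 on the other strand, which was at 0.0433, 0 and 0.0981 FPKM in NEC and 1.19, 0.842 and 0.587 in control, so part of the reads may be assigned to either.

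Nr0b2 encodes SHP, a repressor without a DNA-binding domain that FXR induces (ENSMUSG00000037583, chromosome 4, 133553376 to 133556536). Nr0b2 was at 0.104, 0.486 and 1.14 FPKM in NEC 1, 2 and 3 and at 0.113, 0.406 and 0.109 FPKM in control 1, 2 and 3. These rest on 2, 10 and 24 fragments in NEC and on 2, 7 and 2 in control. Its mean was below 1 FPKM, so it was not part of the test. Without a filter on low values its log2 change was 0.34 (95% interval -0.27 to 0.94, adjusted p = 0.397, limma), and it was not called. NEC 3 had the highest value of the 6 libraries for Nr0b2 (exact Poisson 95% interval 15.4 to 35.7 fragments), as it did for Fabp6 and Slc10a2.

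The NEC libraries did not rank alike for all genes. NEC 3 was the highest NEC library for Slc10a2, Fabp6, Slc51a, Nr1h4, Fgf15 and Nr0b2, NEC 1 for Slc51b, and NEC 2 for Abcc2 and Abcc3. Regional markers of the bowel differed between the same libraries. Gata4, a transcription factor that in adult mice marks the upper small intestine, was at 7.96, 7.28 and 3.74 FPKM in NEC 1, 2 and 3 and at 0.184, 0.0852 and 0.0622 FPKM in control. Fabp1, a fatty acid-binding protein of the upper bowel, was at 194, 145 and 70.6 FPKM in NEC and at 0.232, 0.475 and 0.781 FPKM in control. NEC 3 was the lowest NEC library for both. Of the 7 genes of the upper small intestine list, 6 were tested. Of these, Gata4, Fabp1, Rbp2, Ada and Lct were higher and Cybrd1 lower in NEC. The Cybrd1 call was lost in 10 of 18 alternative settings, TMM among them, and Onecut2 was below 1 FPKM everywhere. The summed level of the list was 512 to 799 FPKM in NEC and 51.2 to 64.3 in control. Beside this list and those that follow, 7.69% of all tested genes were higher and 30.6% lower. Of 12 further ileal and intestinal genes, 3 were higher (Cdh17, Muc13 and Clca4b), 3 lower (Mep1a, Lrp2 and Dab2) and 6 not called. The Dab2 call was lost in 9 of 18 alternative settings, TMM among them. That of Cdh17 was lost without control 1 or control 2, and that of Muc13 without any single control. Of 13 tested enterocyte genes, 12 were higher and none lower. Of these calls, that of Anpep was lost in 10 of 18 alternative settings, among them quantile normalization, the replicate block and each control left out, and those of Apoa1 and Mep1b without control 1 or control 2. The summed level of the list with the untested Treh was 13436 to 16253 FPKM in NEC and 3988 to 4821 in control. Its largest part was Apoa4, at 8174 to 10333 FPKM in NEC and 1678 to 2178 in control. The median log2 change of the 13 tested enterocyte genes was 0.92. The part of regional and enterocyte genes in the levels of Fgf15, Fabp6 and the exporters was not tested.

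**Figure D3:**
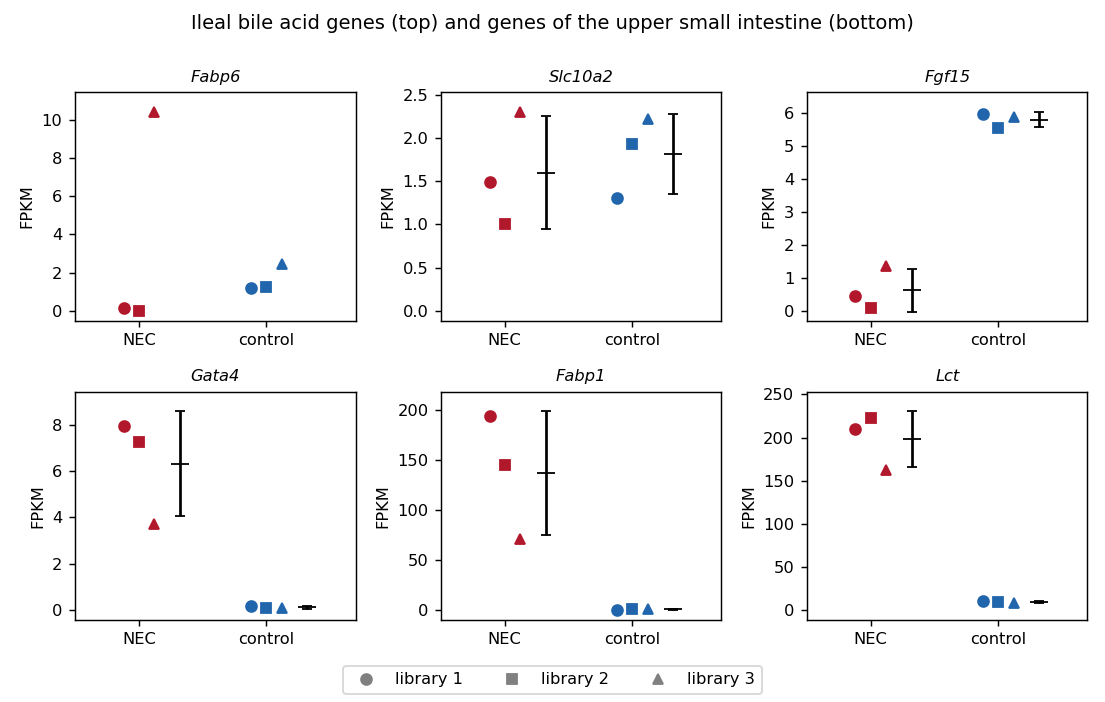
FPKM (y axis, linear, its own scale in each panel) of Fabp6, Slc10a2 and Fgf15 (top row) and of the upper small intestine genes Gata4, Fabp1 and Lct (bottom row). Points are libraries marked by number, which the labels do not say to be paired. Black marks are mean and SD of 3 libraries, left out for Fabp6. NEC 3, the triangle, is the highest NEC library in the top row and the lowest in the bottom row.

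The 4 calls were also made on other scales, with other filters and with single libraries left out. Over 18 such settings, Slc51a changed by 0.80 to 1.29, Slc51b by 1.59 to 2.30 and Abcc2 by 1.01 to 1.55, each called in every one. The highest adjusted p was 0.0479 for Slc51a, 0.0464 for Slc51b and 0.0481 for Abcc2, each without control 2. Fgf15 changed by -3.91 to -1.86 and was called in the 17 settings in which it was tested, with an adjusted p of at most 0.0308, while its mean of 3.21 FPKM left it out under a filter of 5 FPKM. Relative to the 10 epithelial markers, Slc51a, Slc51b and Fgf15 changed by 1.04, 2.07 and -2.08.

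**Figure D4:**
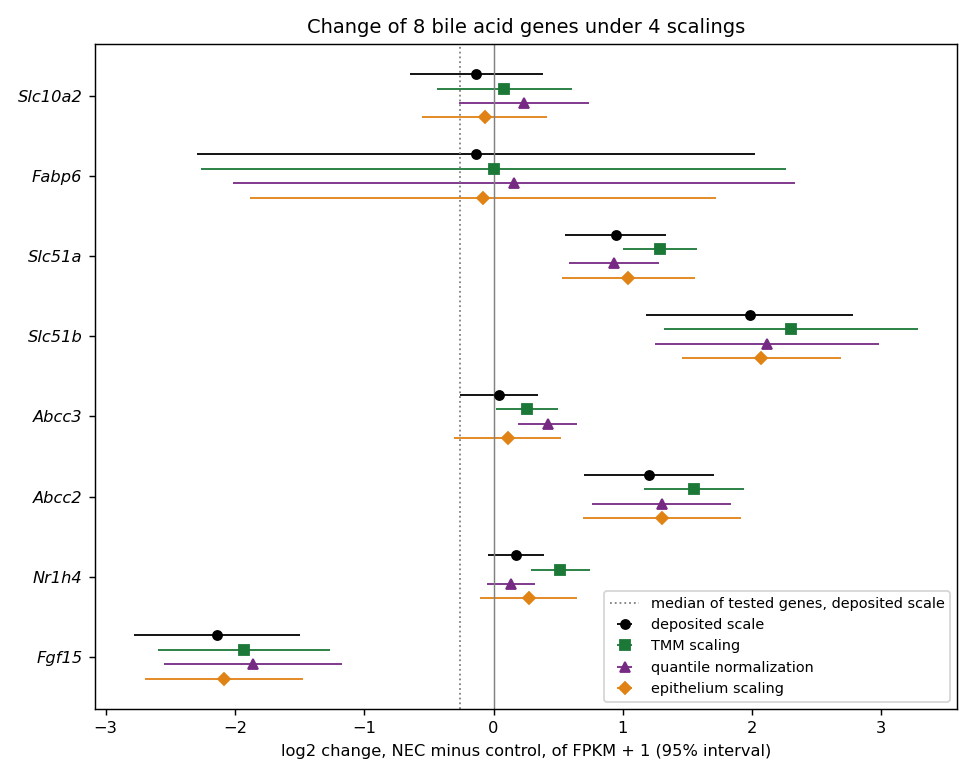
Log2 change of NEC minus control with its 95% interval (x axis, log2 of FPKM + 1) for the 8 tested bile acid genes on the deposited scale and 3 other scalings, marked by symbol. Slc51a, Slc51b and Abcc2 lie right of 0 and Fgf15 left of 0 under each, while the intervals of Slc10a2 and Fabp6 span 0 and those of Abcc3 and Nr1h4 do so under some scalings only.

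Of 15 other genes listed under bile acid transport, 9 were tested, with a median log2 change of 0.72. Of these, 6 were higher, 1 was lower and 2, Abcc4 and Abcg2, were not called (log2 -0.05 and -0.30). Slc10a1 and Abcb11 were below 1 FPKM in every library and not tested. The list is broad: its 6 higher genes are a drug and steroid pump, a sterol exporter pair, a sodium-proton exchanger and 2 scaffolds. Over all tested genes, 7.69% were higher and 30.6% lower, with a median of -0.26. Abcb1a, the apical drug and steroid pump P-glycoprotein, was at 99.6 to 119 FPKM in NEC and 33.9 to 35.3 in control (log2 1.59, SE 0.10, adjusted p = 0.000874, limma). It has the close paralog Abcb1b, so the split of reads between them is uncertain. Abcg5 and Abcg8, which together form the apical sterol exporter, rose by 1.03 and 0.63. Pdzk1 and Slc9a3r1, scaffolds that hold apical transporters, rose by 0.98 and 0.72. Slc9a3, the apical sodium-proton exchanger NHE3, was at 69.2, 8.54 and 5.53 FPKM in NEC and 1.24 to 1.59 in control (log2 2.75, adjusted p = 0.0399, limma), a call lost with TMM, without a filter, without NEC 2 and without any single control. The 1 lower gene was Slco2b1, an organic anion uptake carrier, at -0.43, named after its value was seen, and lost in 13 of the 18 alternatives.

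Among 22 tested receptors and partners, 3 were higher and 5 lower, with a median log2 change of -0.10, beside the 7.69% higher and 30.6% lower over all tested genes. With TMM scaling 8 were higher and 2 lower, beside 16.8% higher and 14.3% lower over all tested genes. Quantile normalization gave 4 higher and 1 lower, beside 2202 higher and 2387 lower of the 15806 tested genes. Malrd1 encodes DIET1, a large enterocyte protein that in mice promotes FGF15 production. Malrd1 was at 10.7, 10.1 and 14.5 FPKM in NEC and 28.8, 26.9 and 26.2 FPKM in control, without overlap and with NEC 3 again the highest NEC library. Its log2 change was -1.17 (SE 0.14, adjusted p = 0.00494, limma, Benjamini-Hochberg), and -0.83 with TMM scaling. Gata4, described above, rose by 2.67 and Nr1h3, the oxysterol receptor LXR-alpha, by 0.58, the second lost without control 2. Ppara, a receptor for fatty acids named after its value was seen, rose by 0.58 and lost its call without any single control. Nr3c1, S1pr2, Fgfr4 and Ncoa2, the last named after its value was seen, were called lower, with log2 changes of -0.65, -0.73, -0.63 and -0.30. All 4 of these calls were lost without any single control and with quantile normalization. Nr1i2, the xenobiotic and bile acid receptor PXR, was at 81.3, 51.7 and 39.4 FPKM in NEC and 31.2 to 33.5 in control and missed the threshold (log2 0.73, adjusted p = 0.0539, limma).

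Of 17 genes of bile acid synthesis and conjugation, 9 were tested. Of these, 4 were higher and 1 lower, beside 7.69% higher and 30.6% lower over all tested genes. The liver genes Cyp7a1 and Cyp8b1, which set the rate and the type of bile acid synthesis, were at or below 0.0375 FPKM in every library. The genes that rose also serve peroxisomal handling of fatty acids: Hsd17b4, Slc27a2 and Acot8 rose by 1.14, 1.17 and 0.41, and Scp2 was called higher with an adjusted p of 0.0057 (limma). The Slc27a2 call was lost without any single control, as was that of Acot8. Cyp7b1, an oxysterol hydroxylase, fell by 0.52, and its call was lost with TMM scaling. Of 13 genes of detoxification and targets of PXR, CAR or VDR, 9 were tested, with a median log2 change of 1.50. Of these, 6 were higher and none lower, again beside 7.69% and 30.6% over all tested genes. Cyp3a13 was at 103 to 178 FPKM in NEC and 47.6 to 49.1 in control, and Ugt1a1, which joins glucuronic acid to bilirubin, at 88.4 to 111 FPKM in NEC and 43.0 to 47.8 in control. Cyp3a25, Sult2b1, Gsta1 and Gstm1 rose by 2.32, 1.50, 3.62 and 2.87. A reservation is that Cyp3a, Ugt1a, Gsta and Gstm genes have close relatives, so the split of reads among them is uncertain.

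**Figure D5:**
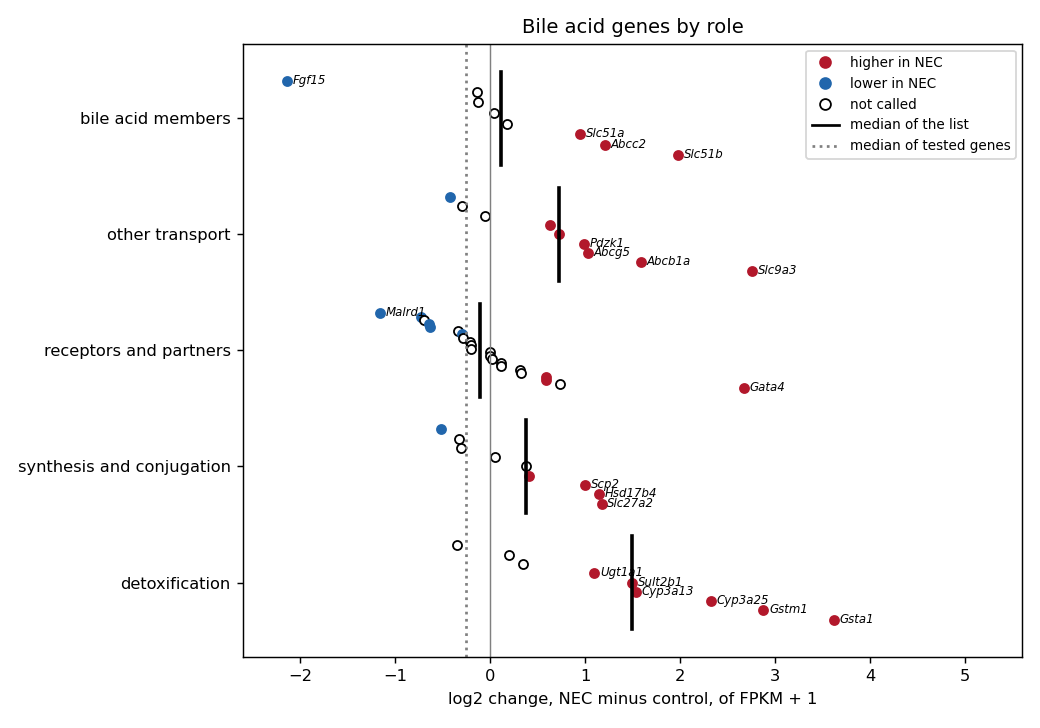
Log2 change of NEC minus control (x axis, log2 of FPKM + 1) of each tested gene in 5 role groups, ordered within each group. Filled points are called genes, open points are not called, black bars are list medians and the dotted line is the median of all tested genes at -0.26. The medians are 0.11 for the 8 tested bile acid genes, 0.72 for other transport and 1.50 for detoxification.

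The genes most like each member in pattern were found among protein-coding genes averaging 5 FPKM or more, by the root mean square difference of centred log2 profiles over the 6 libraries. For Slc51a the closest was Pdzk1 (0.08), which is on the transport list, followed by Aldh9a1 and Erich4. For Abcc2 the closest was Hsd17b4 (0.10), followed by Gstm2 and Slc34a2. For Slc51b they were Muc3, Ptk6 and Mmp10 (0.20 to 0.25), each likewise highest in NEC 1. For Fgf15 they were Hoxb6, Tmem119 and Il18r1 (0.23 to 0.25). For Fabp6 no profile came closer than 0.80, that of Rps25, followed by Nts and Hyal5, while its own spread was 1.17 on the same scale. Slc10a2 was closest to Ang (0.11), then to Ccl25 and Nat8. Abcc3 was closest to Osbp, Gfm1 and Coq9, and Nr1h4 to Wbp2, Acsf3 and Tbc1d13, all at 0.02 or 0.03, where the profiles of Abcc3 and Nr1h4 themselves spread by only 0.11.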

How the data were processed

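The authors deposited 1 table with a value per gene and library. The submitters' processing notes name HISAT2, SAMtools (version 1.3.1), Cuffdiff and the genome build mm10. The annotation and strand setting are not given in the sources used here. Per the labels' protocols, RNA with an integrity number above 7 went into paired-end libraries. The header names no unit, and the values deposited by the authors were read as FPKM, since Cuffdiff gives FPKM and low values fall on steps of 1 fragment. A column named N with a number was taken as the NEC library with that number. Of 55487 identifiers, 55227 matched GENCODE M21, which gave symbols, coordinates and lengths. For single-transcript genes over 500 bases, FPKM times length times depth was whole within 0.01 for 98.6% to 98.7% of values below 100 fragments.

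NEC and control were compared on log2(FPKM + 1) by limma 3.58.1 (R 4.3.3, mean-variance trend), with group as the only term. Benjamini-Hochberg adjustment ran over the 15806 genes averaging 1 FPKM or more. The TMM scaling used no weights and trimmed 30% of ratios and 5% of levels. RefSeq promoter windows are of GRCm38.p6. All members are named. Of each other list the text names called genes, up to the 6 with the largest change, plus Rxra and Rxrb. Named after their values were seen were Nr1i2, Cyp7a1, Cyp8b1, Abcc4, Abcg2, Slc10a1, Abcb11 and genes marked in the text. Members, lists and tests were chosen with earlier results of these data known. Plots used matplotlib 3.10.9 under Python 3.11.15.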

Additional observations from a re-analysis of the deposited data

How the results depend on the processing

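Alternatives covered the pseudocount, the filter, the scaling, the trend, library weights, the replicate number as a block and each library left out; protein-coding genes alone were added after seeing the data. Bile acid genes called higher were 3 or 4 throughout. Those called lower numbered 0 under a filter of 5 FPKM, where Fgf15 was not tested, and 1 to 2 with single libraries left out. Values that changed sign were not called in either setting: Slc10a2 was 0.084 with TMM, 0.24 with quantile normalization and 0.039 without NEC 2; Fabp6 was 0.15 with quantile normalization, 0.39 and 0.48 without NEC 1 and NEC 2 and 0.077 without control 3; Abcc3 was -0.037 without NEC 2. Fabp6 was -1.41 and -2.69 with pseudocounts of 0.1 and 0.01, again not called. With single libraries left out, log2 changes were -0.32 to 0.039 for Slc10a2, -1.28 to 0.48 for Fabp6, called lower without NEC 3, and -0.037 to 0.13 for Abcc3. Over all genes, 2655 were higher with TMM and 2202 with quantile normalization, and 481 to 1584 with single libraries left out. Lower genes numbered 1746 under a filter of 5 FPKM, 2264 with TMM, 2387 with quantile normalization, 1698 with scaling to the epithelial markers, and 1004 to 5302 with single libraries left out. In the lists of transport, receptors, synthesis and detoxification, with 9, 22, 9 and 9 genes tested, 19 were higher and 7 lower. Over all tested genes 7.69% were higher and 30.6% lower, and with TMM 16.8% and 14.3%. The lower pathway genes numbered 3 under a filter of 5 FPKM, 2 with TMM, 1 with quantile normalization and 3 with scaling to protein-coding genes. They numbered 1 with scaling to the epithelial markers and 1 to 7 with single libraries left out, where 14 to 23 were higher. With the replicate block the lower pathway genes numbered 4, and over all genes 856 were higher and 3230 lower; the block ended no call among the 9 genes. Same-numbered libraries had deviations from their group means that correlated at -0.07 to -0.01, and other pairs at -0.03 to 0.08. These values show no pairing by number, but with 3 libraries per group they cannot exclude it. The cause of these shifts was not tested. Fabp6 and Nr0b2 rest on few fragments in most libraries, but NEC 3 and NEC 1 differed in both beyond counting error.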
